A study of Mus musculus with 2 samples.

Results

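Annotated transcripts longer than 6 kb were examined in long-read RNA sequencing of the mouse hippocampus. The members were the models classed as Known, which means that their chain of splice junctions is that of a transcript in the GENCODE M21 catalogue, with a catalogue length above 6000 bases on mm10. They numbered 1274 transcripts of 1141 genes, among 23989 Known mouse transcripts with at least 1 read. The samples were 2 libraries, biological replicates 1 and 2 of a single group: hippocampus (labelled as its layer) of B6CASTF1/J males, an F1 hybrid of C57BL/6J and CAST/EiJ, at 14 days of age, with 3 males pooled in each library and 2 µg of RNA as the starting amount. The labels carry no genetic change or treatment. Some label fields give the libraries different animals and another gives both the same ones, so differences between the replicates may be purely technical. No contrast between conditions exists, and each p-value below compares these libraries only.

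Long-read sequencing reads a cDNA copy of an mRNA in 1 piece, so that exons far apart on the message are seen joined. Brain is known for mRNAs with long 3′ untranslated regions, the stretch after the stop codon in which microRNAs and RNA-binding proteins act, and many genes end their message at any of several polyadenylation sites. Hippocampal neurons also express some of the largest coding mRNAs in the genome, for spectrins, motor proteins, active-zone scaffolds and ion channels. A message can therefore be long for either of these reasons, and the members were described by both.

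A read was counted for a catalogue transcript through its junctions. The catalogue length of a member is thus not the length of its reads. The stretch that such a read must hold runs from the first to the last splice junction and is called the spliced core here: the transcript length without its first and its last exon. Bases around the last junction are given for 6 members because that junction is the farthest 3′ point a read has to reach. Lower case marks the end of the exon before it and capitals the start of the last exon, all of it coding sequence, read 5′ to 3′ from the GENCODE M21 transcripts. The first 4 members have a short spliced core and a long last exon, and the last 2 the opposite.

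Ppp2ca-201: tcttaagtattctttCTTGCAGTTTGACCC
Glo1-206: agaagcctgatgacgGGAAAATGAAAGGAC
G3bp1-201: gtccttagtaataggCCCATCATGTTCCGA
D10Wsu102e-201: aacatcatacagatgGATGTGGCCTTATTT
Fasn-201: tacaacctctcccagGTGTGTGACGGGAAG
Sptbn1-201: caagccaaagatgatGAGGAAATGAACACA

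In Ppp2ca these capitals began at base 52121902 of chromosome 11 on the plus strand of mm10, and 5877 bases of last exon followed from there. In Glo1 they began at base 30594226 of chromosome 17 on the minus strand, with 9291 bases of last exon. In Sptbn1, on the minus strand of chromosome 11, they began at base 30100714 with only 1320 bases left to the annotated end, while 6919 bases of spliced core preceded them.

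Replicate 1 held 821324 mouse reads and replicate 2 held 743862, after removal of the ERCC spike-in controls. Known transcripts took 533947 and 472007 of them. Choroid plexus markers stood at 206 CPM (reads per 1000000 mouse reads) in replicate 1 and 91.4 in replicate 2, and myelin markers at 5708 and 2855 CPM. Hippocampal neuron markers stood at 3264 and 3355 CPM, and all 30 markers of the 7 lists had reads. The part of these differences in any value below was not tested. A count of 0 allows up to 3 reads, a floor of 3.65 CPM in the first library and 4.03 CPM in the other.

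Members with reads numbered 1090 in replicate 1 and 1042 in replicate 2. Both libraries held 858 of them, and these carried 97.9% of the members' reads. Members took 15442 reads in replicate 1, or 2.89% of its Known reads (Wilson 95% interval 2.85 to 2.94), and 14234 reads in replicate 2, or 3.02% (2.97 to 3.06). The mean share was 2.95% ± 0.0874 (SD, n = 2). Replicate 2 was higher by 0.124 percentage points (Fisher's exact test, two-sided, p = 2.58e-04). Over all mouse reads the shares were 1.88% and 1.91%, and the difference no longer passed the threshold of 0.05 (p = 0.127, Fisher's exact test). The same held for transcripts over 8000 bases alone (p = 0.105, Fisher's exact test).

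Reads were spread unevenly over the members. The median member had 4 reads over both libraries, 285 had a single read, 433 had at least 10 and 59 had at least 100. The 15 most abundant held 28.2% of all member reads. Lengths ran from 6002 to 123179 bases with a median of 7129.5, and 387 members were longer than 8000 bases. Protein-coding transcripts made up 1216 of the 1274, with 29109 of the 29676 reads, followed by 30 retained-intron transcripts with 181 reads and 11 lincRNAs with 261.

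The most abundant member was Ppp2ca-201, the message for the catalytic subunit of protein phosphatase PP2A, on chromosome 11 from 52098681 to 52127778. It had 756 reads in replicate 1 and 645 in replicate 2, a level of 894 ± 37.7 CPM (SD, n = 2). Of its 7102 bases 927 code for protein and 5877 lie in the last of 7 exons, which leaves a spliced core of 755 bases. Eif4g2-213, a translation initiation factor related to eIF4G, had 527 and 511 reads (664 ± 32.0 CPM). It combined a last exon of 5008 bases with a core of 2741 bases in 22 exons. Hnrnpu-201, a nuclear RNA-binding protein, had 352 and 319 reads (429 ± 0.189 CPM). Glo1-206, the enzyme that clears methylglyoxal, had 337 and 333 (429 ± 26.4 CPM), and its last exon was 94.2% of a length of 9865 bases. Rab11b-201, a small GTPase of recycling endosomes, had 330 and 258 reads (374 ± 38.9 CPM). Scaled for depth, it stood at 402 CPM in replicate 1 and 347 in replicate 2 (adjusted p = 0.621, Fisher's exact test). Hnrnpu and Glo1 did not differ beyond their spread over the libraries, and Rab11b was below both in each library. A long read counts a transcript once whatever its length, so CPM was not divided by length.

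The next 9 members described here, all among the 15, also had most of their length in the last exon. Chst2-201, a sulfotransferase, had 300 and 239 reads, and its last exon made up 98.0% of the length. Rab18-205, another small GTPase, had 273 and 245 reads, and Kif5c-201, a kinesin-1 heavy chain of neurons, had 235 and 234. G3bp1-201, a stress granule protein, had 217 and 232 reads. Mapre1-201, which encodes the microtubule plus-end protein EB1, had 201 and 180 reads, and Matr3-201, a nuclear matrix protein, had 170 and 166. Pafah1b2-201 had 165 and 159 reads, the single-exon Purb-201 had 157 and 136, and Zfand5-205 had 151 and 126. These 9 lay between 177 ± 10.2 and 343 ± 31.1 CPM (SD, n = 2).

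**Figure D1:**
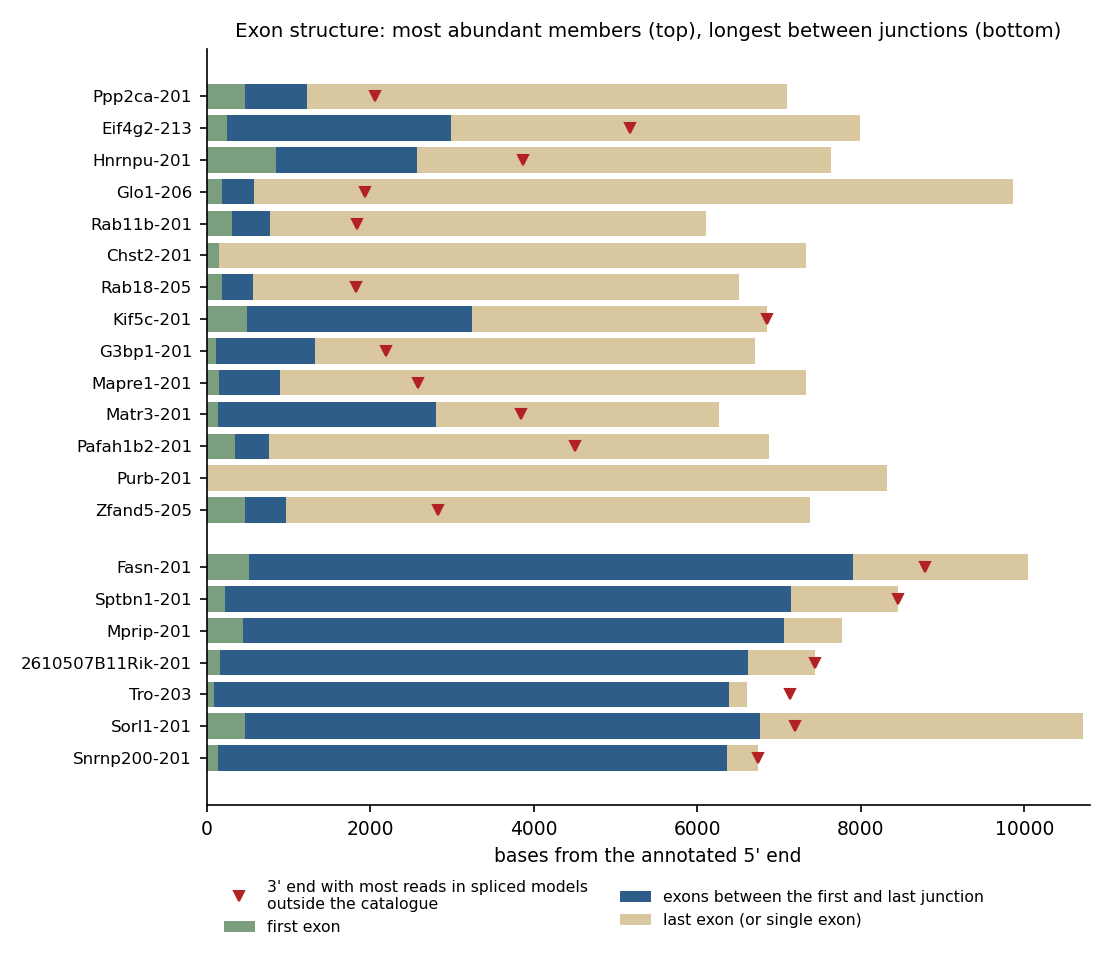
Exon structure of 14 of the 15 most abundant members (top) and of 7 of the 8 members with at least 10 reads and the longest spliced core (bottom), in bases from the annotated 5′ end. Bars show the first exon, the spliced core and the last exon, and triangles mark the 3′ end with most reads among spliced models outside the catalogue, where there are such models. In Ppp2ca the triangle lies at 2059 of 7102 bases, and in Sptbn1 at 8460 of 8461 bases.

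The last exon took a larger share of the length in the abundant members. It was 66.3% of the length in the median member and 79.3% when members were weighted by reads. With single-exon transcripts left out, it was 64.6% in the median member and 45.8% in the median Known transcript up to 6000 bases, and the median last exon held 4624 bases against 858. In multi-exon coding members the coding sequence was 35.2% of the length at the median, against 52.9% in shorter coding transcripts, and it ended in the last exon in 1143 of 1203 of them. Members whose last exon was at least 50% of the length numbered 864 and held 86.7% of member reads. The 135 members with a last exon of at most 20% held 827 reads, 2.79% of the total.

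The spliced core ran the other way. Its median was 2056 bases over members and 1153 weighted by reads. Members with a core up to 1000 bases, single-exon ones included, numbered 335 and held 13551 reads, 45.7% of the total. The 436 with a core over 3000 bases held 3631 reads, and the 72 with a core over 6000 bases held 431. Across the 1226 multi-exon members, Spearman's rho with reads was -0.30 for the core, -0.21 for the number of exons and 0.28 for the last-exon share. Across all 1274 members it was -0.034 for the catalogue length. These correlations are across transcripts that share the same libraries, so they describe these libraries only.

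Members whose core itself exceeds 6000 bases are the ones that needed the longest reads. Fasn-201, fatty acid synthase, on chromosome 11 from 120805846 to 120824547, had the longest core among those with at least 10 reads, 7386 bases over 43 exons, with 15 reads in replicate 1 and 21 in replicate 2. Sptbn1-201, beta-II spectrin, on chromosome 11 from 30099395 to 30268169, had 16 and 23 reads (25.2 ± 8.09 CPM, SD, n = 2) over a core of 6919 bases. 2610507B11Rik-201 had 34 and 32 reads over 6457 bases. Mprip-201, a regulator of myosin phosphatase, had 10 and 7 reads. Tro-203, trophinin, had 4 and 11, Sorl1-201, a sorting receptor, 9 and 7, and Snrnp200-201, a helicase of the spliceosome, 11 and 8. All of these had reads in both libraries. Below them in core, Sbf1-201 had the most reads of any member with a last exon of at most 20%, 47 and 50.

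The members of greatest catalogue length had short cores, of up to 3430 bases in the 10 longest with at least 10 reads. D10Wsu102e-201 spans 123179 bases, of which 122802 lie in its last exon, and its core holds 224 bases. It had 9 and 7 reads. D1Ertd622e-201 (40378 bases) had 11 and 6 reads over a core of 90 bases, and 9330162G02Rik-201 is a single exon of 30942 bases with 22 and 28 reads. Hnrnpr-207, an hnRNP protein (21452 bases), had 47 and 31 reads over a core of 1301 bases. Serbp1-201, an mRNA-binding protein (15474 bases), had 38 and 40 reads over 854 bases. The GABA-A receptor subunit Gabrb1-201 (13737 bases) had 61 and 41 reads over 1000 bases. In each of these 6 the last exon was at least 89.4% of the length. Also among the 10 longest were Dpp10-202, an accessory protein of potassium channels (5 and 7 reads, core 2196 bases), Dgkh-202, a diacylglycerol kinase (8 and 4 reads, core 3430), and the zinc finger protein Zfp704-201 (7 and 3 reads, core 1139).

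Single-exon members carry no junction, and 48 of them held 1233 reads, 4.15% of the total. Purb-201 led them, followed by the nuclear non-coding RNA Malat1-201 with 90 and 58 reads. A retained-intron transcript, Cbx6-208, had 44 and 59, the small GTPase gene transcript Rap2b-201 had 42 and 54, and Rbm15b-201 had 41 and 48. Neat1-201, the paraspeckle RNA of 20771 bases, had 4 and 2 reads.

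Detection was then set against the catalogue. Of 4192 annotated transcripts over 6000 bases, 30.4% had at least 1 read. The share was 34.8% between 6000 and 8000 bases and 23.6% above 8000, beside 37.3% between 4000 and 6000. Within the multi-exon transcripts over 6000 bases it was 54.2% with a core of 500 to 1000 bases (137 of 253), 33.3% at 3000 to 4000 (157 of 472), 21.8% at 5000 to 6000 (95 of 435) and 8.81% above 6000 (72 of 817). Replicates 1 and 2 gave 50.6% and 48.2% in the first of these classes and 6.49% and 6.61% in the last. The order was broken by cores up to 500 bases with 29.7% (150 of 505), and by cores of 1000 to 2000 bases with 41.1%, below the 43.2% at 2000 to 3000. Transcripts of 3000 to 6000 bases gave 48.1% at a core of 500 to 1000 bases, 26.7% at 3000 to 4000 and 14.7% at 5000 to 6000 (14 of 95). By this share the longer transcripts were not below the shorter ones in these 3 classes. They were below them at a core of 1000 to 2000 bases, with 41.1% against 46.3%. In reads per annotated transcript the longer ones were furthest below in that same class of 1000 to 2000 bases, with 9.72 against 19.0. They were also below at cores up to 500 bases (11.0 against 12.7), 2000 to 3000 (11.4 against 12.2) and 3000 to 4000 (3.80 against 5.12). By that measure they were above at 500 to 1000 bases (26.6 against 26.1), 4000 to 5000 (2.24 against 1.92) and 5000 to 6000 (1.17 against 0.821). The expression of the genes differs between the classes, and its part was not tested.

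**Figure D2:**
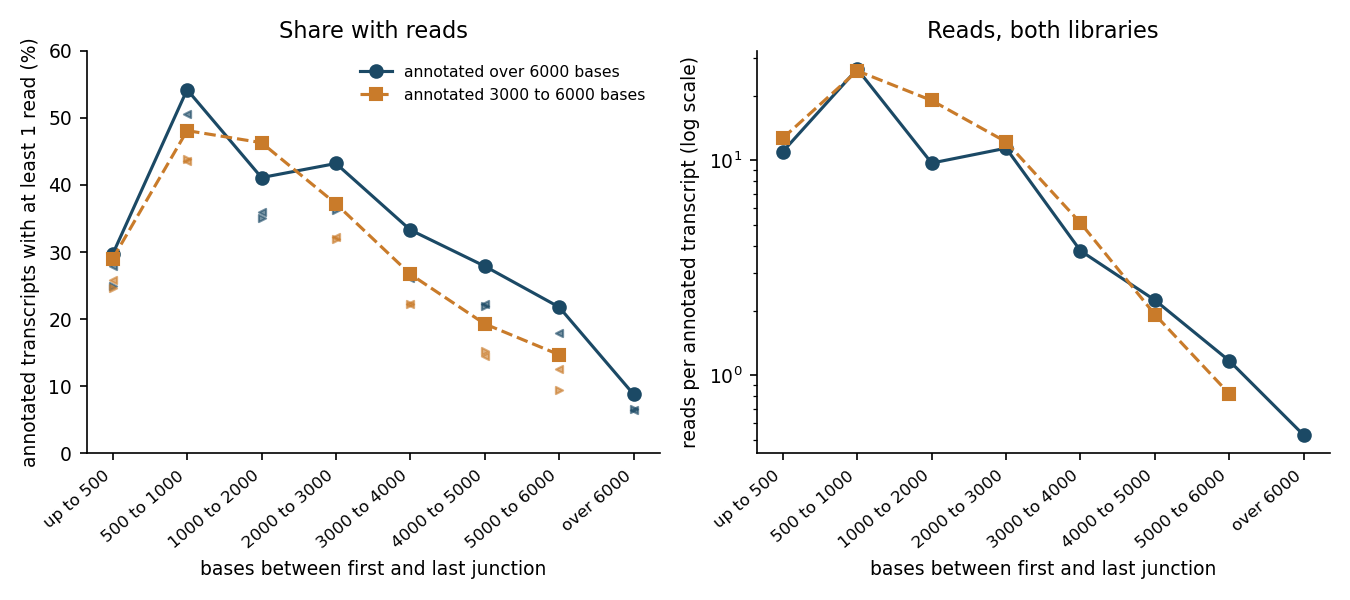
Left, percentage of annotated transcripts with at least 1 read by spliced core in bases, over both libraries (large symbols) and in replicate 1 (left-pointing) and replicate 2 (right-pointing); right, reads per annotated transcript on a log scale. For transcripts over 6000 bases the percentage goes from 54.2% at a core of 500 to 1000 bases to 8.81% above 6000, and reads per annotated transcript from 26.6 to 0.528.

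The 3′ ends recorded for other models of the same genes were compared with the annotated ones. Spliced models outside the catalogue carry an end of their own, whereas a read counted as Known takes the catalogue's. The ends were taken from incomplete splice matches (models that hold part of a catalogue transcript's junctions) and from models with new junctions or combinations that use a member's last splice acceptor, the first base of its last exon. In members with a last exon over 4000 bases, 3938 such models of 531 members ended at a median of 24.8% of the last exon, 1296 bases after the acceptor. The medians were 1274 bases in replicate 1 and 1352 in replicate 2. Only 11.7% of these models ended within 50 bases of the member's annotated end, and 48.9% ended within 50 bases of another annotated end. Where the last exon had up to 1000 bases, 84.0% of 1412 models ended within 50 bases of the member's end. Over all last exons 72.0% of 9626 models ended exactly on an annotated end, and the models held only 2108 distinct ends, so a recorded end is a position assigned to a model and not each read's own end.

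**Figure D3:**
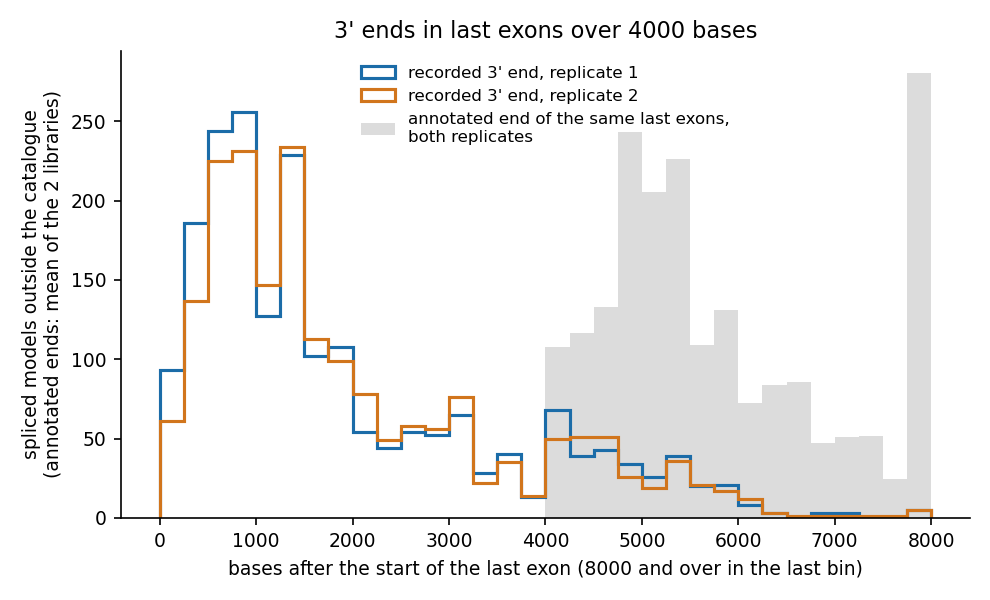
Histogram of recorded 3′ ends of spliced models outside the catalogue, in bases after the start of the last exon, for members with a last exon over 4000 bases (lines, replicates 1 and 2; bins of 250 bases). The grey area gives the annotated ends of the same last exons, all beyond 4000 bases, while the recorded ends have a median of 1274 bases in replicate 1 and 1352 in replicate 2.

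Named members differed in this respect. Ppp2ca had 18 such models with 24 reads in replicate 1 and 26 in replicate 2. The end with most of these reads lay 834 bases into the last exon, 2059 bases from the annotated 5′ end, and 0 reads of such models lay within 50 bases of the annotated end. The corresponding end of Glo1 lay 1361 bases into 9291, that of G3bp1 867 into 5380 and that of Hnrnpr 1263 into 20029. Rab11b had a single recorded end, 1064 bases into 5330. In contrast, all 106 reads of such models of Kif5c and all 100 of Kif5a, another kinesin-1 heavy chain, had the annotated end. So did all 88 of 2610507B11Rik. Among the 600 members with at least 5 reads of such models, the length from the annotated 5′ end to the end with most reads had a median of 6093 bases, against an annotated 7058. In 283 of them, 47.2%, that length was at most 6000 bases.

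Sequence before these ends was searched for the poly(A) signal AATAAA or its variant ATTAAA, which directs cleavage of the message, on the transcript's strand only and within the 40 bases before the end. Of 1412 distinct recorded ends more than 300 bases before the annotated end, 47.5% had either hexamer. Of all positions of the same last exons 4.30% had one, and of the annotated ends of multi-exon members 82.3%. The recorded ends include annotated ends of other transcripts, so the comparison with all positions draws in part on the catalogue itself. The share among ends away from any annotated end was not computed. At least 12 A among the next 20 bases followed 16.3% of the recorded ends and 1.57% of all positions, and 38.1% of the ends had neither feature. An A-rich stretch is where oligo(dT) primers can anneal inside a message, and its part in these ends was not tested. Of the ends away from any annotated end (more than 50 bases), 47.8% of the 527 in replicate 1 had a recorded end within 50 bases in replicate 2, and 49.1% of the 513 in replicate 2 had one in replicate 1.

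For 5 members the 30 bases around the signal before their most recorded early end are given, because that end lies far inside the annotated last exon. Capitals mark the hexamer.

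Ppp2ca-201 (chr11:52122706-52122735, plus strand): gtaaagaaaAATAAAgatcaaggccactgt
Eif4g2-213 (chr7:111070571-111070600, minus strand): atcttctatATTAAAtaattactatataac
Glo1-206 (chr17:30592869-30592898, minus strand): ataggctgaAATAAAgctaacactgtttag
Mapre1-201 (chr2:153768529-153768558, plus strand): cagtttttaAATAAAattctgtatttcaag
D10Wsu102e-201 (chr10:83368805-83368834, plus strand): tcaaaaatgAATAAAttctatttaaaccgt

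These sites lie in the 3′ untranslated part of the last exon on mm10. The end of Ppp2ca came 15 bases after its hexamer, and those of Eif4g2 and Glo1 18 bases after theirs. In D10Wsu102e the end rested on 1 read, 3130 bases into the last exon. Hnrnpu, Rab11b, G3bp1 and Fasn had neither hexamer within 40 bases of the corresponding end, which says only that these letters are not in that window.

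Reads of incomplete splice matches were counted next, per gene and not per member. The class also includes single-exon models, which hold no junction. In 229 genes whose Known reads all lay on transcripts over 6000 bases, incomplete splice matches made up a median 25.9% of incomplete and Known reads, with medians of 20.6% in replicate 1 and 26.7% in replicate 2. In 6829 genes with all Known reads on transcripts up to 6000 bases the median was 7.24%. With at least 50 such reads in place of 20, the medians were 15.8% and 6.17%. Of the incomplete reads in the long genes, 72.8% were on models that hold the 3′ part of the transcript, beside 70.4% in the genes of shorter transcripts. The share differed with the core of the gene's most abundant transcript. With single-exon transcripts left out, it was 2.90% up to 1000 bases (54 genes), 20.0% from 1000 to 3000 (88 genes) and 72.8% above 3000 (78 genes). The genes of shorter transcripts gave 4.35%, 13.5% and 38.2% in the same classes. The class above 3000 bases has no upper limit, and cores over 6000 bases can occur in it only for the long transcripts. Its 2 values thus do not compare cores of like length. The number of junctions and the expression of the genes also differ between these classes, and their part was not tested.

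**Figure D4:**
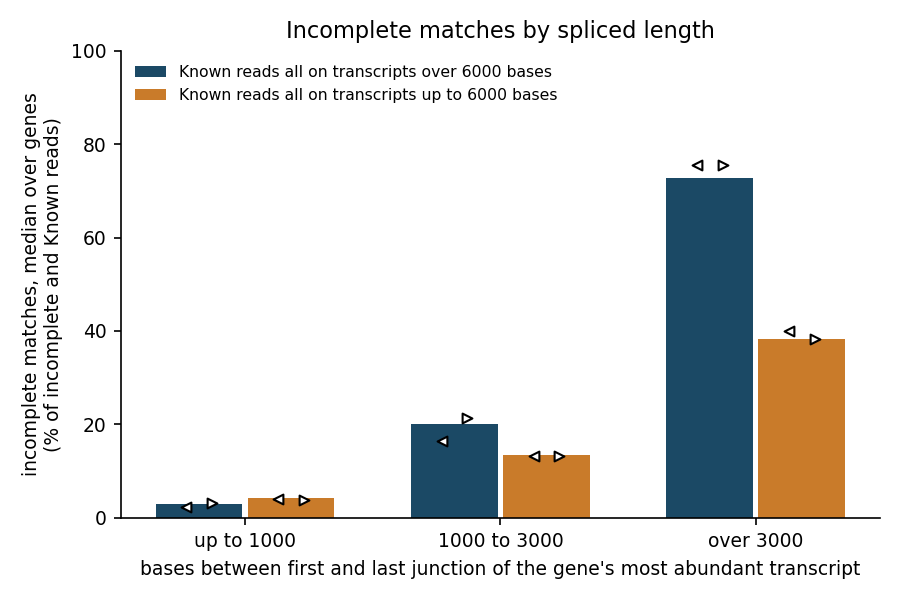
Median over genes of the percentage of incomplete matches among incomplete and Known reads, by spliced core of the gene's most abundant transcript, for genes whose Known reads all lie above (blue) or up to (orange) 6000 bases; triangles give replicate 1 (left-pointing) and replicate 2 (right-pointing). The bars run from 2.90% to 72.8% for the long transcripts and from 4.35% to 38.2% for the shorter ones.

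Dync1h1, the heavy chain of cytoplasmic dynein with a core of 13556 bases, had 65 and 64 incomplete reads and a single complete read, in replicate 1. Abca2, a lipid transporter of oligodendrocytes, had 62 and 72 incomplete reads and 1 complete one. Cyfip2, a WAVE complex subunit, had 50 and 62 incomplete and 21 and 13 complete reads over a core of 3617 bases. In Kif5c incomplete reads made up 36.3% (128 and 139 reads), but only 44 and 38 of them held the 3′ part.

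Single-exon models inside a member's last exon formed another layer. They held 5418 reads in replicate 1 and 5769 in replicate 2, beside 14452 and 13279 reads of the genes' most abundant members. Of the 1097 genes examined, 875 had such reads. Most of these reads were of the class Genomic, whose models have no catalogue junction chain (9106 reads), and the others were incomplete matches (2081). In 368 genes such reads outnumbered the member, a count without a minimum of reads. The imprinted non-coding RNA Meg3 had 190 and 159 such reads and 2 and 4 on Meg3-209. Slc1a2, the astrocytic glutamate transporter, had 150 and 125, against 38 and 32 on Slc1a2-202. Miat, a nuclear non-coding RNA, had 82 and 58 against 2 and 1, and Epb41l1, a membrane skeleton protein, had 49 and 72 against 11 and 15. Such a read shows only that it lies in the exon, and no junction ties it to a transcript.

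Within genes, 681 of the 1141 had all their Known reads on transcripts over 6000 bases. This count has no minimum of reads, so genes with a single Known read are in it, and 142 of the 681 had at least 20. Among 186 genes with reads on both lengths and at least 20 Known reads, the median share on the long ones was 85.0% (interquartile range 37.4 to 95.2). Hnrnpu had 352 of 353 and 319 of 320 Known reads on its long transcript, and Bace1, the beta-secretase, 84 of 85 and 77 of 77. Mprip (99.4%), Trim2, a ubiquitin ligase (99.3%), and Eif4g2 (99.8%) completed the highest 5. At the other end, Asph had 1 of 172 and 0 of 167, Ubl3 2 of 300 and 0 of 232, and the microtubule protein Map4 1 of 170 and 1 of 153. Atp5l, a subunit of ATP synthase, had 1 of 123 and 1 of 148, and the phosphatase Ptp4a3 1 of 66 and 0 of 61.

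Lists of genes with large messages in neurons were then read for members. Among cytoskeletal and motor genes, 35 of the 38 listed have an annotated transcript over 6000 bases and 14 had a member with reads, 961 in all. Kif5c, Kif5a (120 and 87 reads) and Kif5b (64 and 75), the kinesin-1 heavy chains, held most of these. The 18 postsynaptic scaffold genes with such a transcript gave 5 genes with members and 21 reads, and its leading members, Tanc1-203, Kalrn-207 and Sipa1l2-204, had 4 reads each over both libraries. The active-zone list also holds genes of other presynaptic proteins, among them Synj1, Syt1 and Sv2a. Its 15 genes with such a transcript gave 7 with 52 reads, led by Synj1-202, synaptojanin, with 7 and 9.

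Of 30 channel genes with a long transcript 10 had members, with 100 reads. Scn8a-203, a neuronal sodium channel, had 19 and 20 of them. Of 8 glutamate and GABA receptor genes 5 had members, with 284 reads. The AMPA receptor subunit Gria2-201 (10371 bases, last exon 7265) held 88 and 85. The 41 adhesion and matrix genes gave 12 with 94 reads, led by neuroligin Nlgn3-201 with 12 and 17. The 46 chromatin and transcription genes gave 15 with 209 reads, of which Nfib-202, a nuclear factor I protein, had 61 and 49. The 19 RNA-binding genes gave 15 with 190 reads, led by Qk-204, a splicing regulator, with 36 and 46 and its other long transcript Qk-201 with 18 and 25. The list of ubiquitin ligases and giant kinases also holds genes of other large proteins, such as Vps13a, Nbea, Nf1 and Htt. Its 29 genes gave 7 with 23 reads, among them Ubr3-201 with 2 and 2.

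In all, 154 listed genes with an annotated transcript over 6000 bases had no read on one. Reads of any class were present for 151 of them, at least 20 for 84. The spectrin Sptan1 had 170 and 154 reads, of which 122 and 121 were incomplete matches and 2 and 3 were on shorter Known transcripts. Bsn, bassoon of the active zone, had 76 and 48 reads with 0 Known ones, and 57 and 36 of them were Genomic. Grm5, a metabotropic glutamate receptor, had 20 and 23 incomplete matches and 0 Known reads.

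The libraries were compared transcript by transcript. Of the 273 members with at least 20 reads, 0 passed an adjusted p of 0.05 (Fisher's exact test against all other mouse reads, Benjamini-Hochberg over all 7012 Known transcripts tested), beside 1.06% of all those tested (74). At an unadjusted p under 0.05 there were 8 of the 273 members, beside 672 of the 7012 tested (9.58%). At least 2-fold differences were found in 3 of the 273 members, beside 298 of the 7012 (4.25%). Among these 3 were Slc2a13-202, a myo-inositol transporter, with 4 reads in replicate 1 and 18 in replicate 2 (adjusted p = 0.113, Fisher's exact test), and Tmem178b-202, with 8 and 16 (adjusted p = 0.577, Fisher's exact test). In each of the 3 the higher count was in replicate 2. Mean reads per detected transcript were 23.3 over 6000 bases and between 18.6 and 58.6 in the shorter length classes. The part of read number in these counts was not tested. The median log2 ratio of replicate 2 over replicate 1 was 0.06 in members and -0.01 in all tested, and with median-of-ratios scaling the members' median was -0.03, so its sign depends on the scaling. No list held a called member. Among the 433 members with at least 10 reads, Pearson's r between the libraries on log2(CPM + 1) was 0.923 and Spearman's rho 0.878, across transcripts, beside 0.934 and 0.915 in 9226 shorter Known transcripts.

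**Figure D5:**
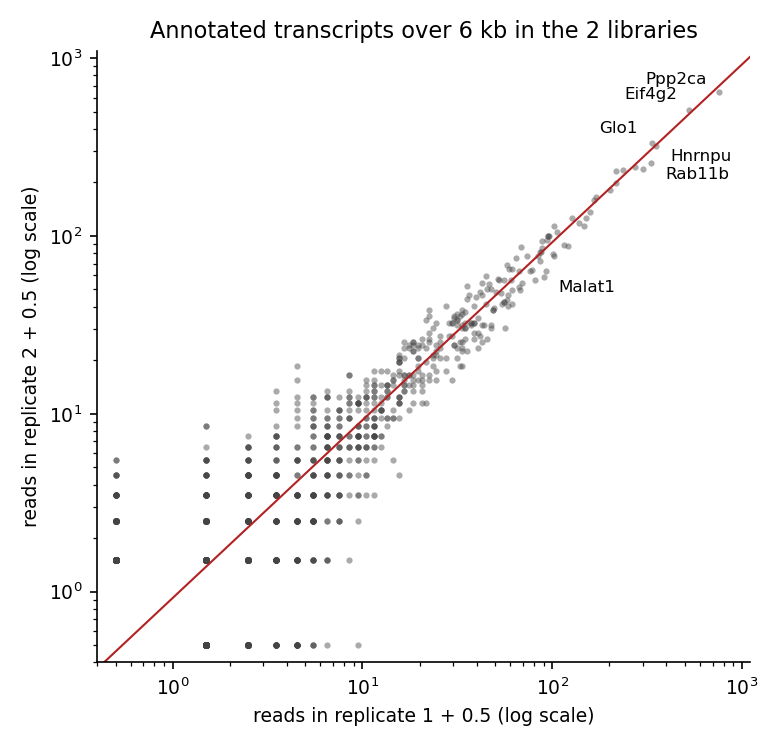
Reads of each of the 1274 members in replicate 1 (x axis) and replicate 2 (y axis), both with 0.5 added and on log scales; the line is the ratio of the members' total reads (15442 and 14234). Ppp2ca with 756 and 645 reads lies at the upper right, and 0 members passed the adjusted threshold.

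Among transcripts with at least 20 reads, the members nearest to the limit of 6000 bases were Tmem106b-201 (6002 bases, 40 and 28 reads), Xpo1-202 (6004 bases, 14 and 16) and Spred1-201 (6016 bases, 76 and 63). The nearest Known transcripts below it, which are not members, were Nucks1-201 (5998 bases, 15 and 7), Gnb4-205 (5997 bases, 51 and 39) and Tub-201 (5997 bases, 27 and 11). Except for Xpo1, each had a last exon of at least 72.3% of its length.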

How the data were processed

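Per the file headers, the deposited tables hold raw, unfiltered counts of reads for each transcript model, from an alignment on mm10 with GENCODE M21. The deposited models carry an attribute named talon_transcript, which names the caller as TALON. The sources used here do not give the aligner or any version. Lengths, exon numbers and exon positions were deposited by the authors and had 0 mismatches with GENCODE M21 in Known models. From these counts, CPM was taken over mouse reads, ERCC reads left out. Log2 ratios have 0.5 reads added. Known transcripts with at least 20 reads were compared by Fisher's exact test with Benjamini-Hochberg adjustment (scipy 1.17.1), a script that was tested on simulated data. TMM and median-of-ratios scaling (edgeR 4.0.16 for the first) were alternatives. Wilson intervals and floors take in counting error alone, as amplified reads are not independent molecules.

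The members and gene lists were chosen with earlier results of these data known. The named transcripts were the 15 most abundant, the 10 longest, the 8 with the longest core, the 5 leading ones by single exon, by last-exon share (at least 80% or at most 20%) and by mixed genes, the 5 genes with most single-exon reads in the last exon, the 3 leading ones of each list and the 3 nearest to 6000 bases on each side. The analyses by core, of recorded ends and of their sequence, the names of incomplete-match genes and those of members that differed by 2-fold were added after values were seen. Some transcripts that this rule names are not reported here.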

Additional observations from a re-analysis of the deposited data

How the results depend on the processing

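The count of called members was 0 under every setting run (at least 10 or 40 reads or no minimum, 3 other scalings). The difference in the share of Known reads fell to 0.028 points above 8000 bases and 0.033 points over all mouse reads (p = 0.105 and 0.127, Fisher's exact test), while it kept its side of the threshold above 5000 bases and without Ppp2ca. Detected members numbered 615 with at least 5 reads. The median last-exon share was 64.6% in multi-exon members, 75.0% with at least 10 reads and 79.3% weighted by reads. The share of Known reads on a gene's long transcripts was 76.2% with at least 10 reads and 87.2% with at least 50. The incomplete-match share was 15.8% with at least 50 reads. The causes were not tested. Without replicate 1 or 2 in turn, detected members ranged from 1042 to 1090, the last-exon share from 67.8% to 67.9%, the gene share from 82.9% to 83.3%, the incomplete-match share from 20.6% to 26.7%, and single-exon reads, as a sum over fewer libraries, from 5418 to 5769. The recorded 3′ end, an analysis chosen after seeing the data, lay between 21.1% and 31.8% of the last exon under 7 settings. A depth of 821324 and 743862 reads limits what a single read can show: 285 members rest on 1 read. No paired analysis was possible because the series has 1 group.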

Other observations

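The intron chain of a transcript does not always name it. Among the members, 16 with 344 reads share their junctions with another annotated transcript of the gene, and in 8 of them, with 212 reads, that transcript is up to 6000 bases long. Collagen Col4a2-201 was among the abundant members with a last exon of at most 20%: it had 17 and 24 reads over a core of 4911 bases and 48 exons, and 52 and 56 reads of single-exon models inside its last exon of 1229 bases.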
